A study of Mus musculus with 21 samples.

Results

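The genes described here are the 39 genes of the mRNA deadenylation and decay machinery: 10 subunits of the CCR4-NOT complex, 3 other deadenylase genes, 8 genes of decapping and 5′ decay, 7 Lsm genes, 4 exosome genes, 4 genes of nonsense-mediated decay and 3 genes of the Zfp36 family. They were chosen by symbol for their known roles, and all 39 were found among the 23587 genes of one deposited table and the 22918 of the other. The libraries came from cells sorted from the mouse main olfactory epithelium, the tissue that holds the olfactory sensory neurons (OSN). All mice carried a tetO transgene that needs a tTA driver. The genotype gg8tTA; OMPtTA; tetO-Mex3a_HyperTRIBE_mCherry (MexHT) gave 6 OSN and 5 mCherry-negative libraries, and gg8tTA; OMPtTA; tetO-HyperTRIBE_mCherry (HT) gave 3 of each. The genotype gg8tTA; tetO-Mex3a_HyperTRIBE_mCherry (gg8 MexHT) gave 2 of each and has its own table. HyperTRIBE is an RNA-editing domain and mCherry a red fluorescent protein; HT mice therefore carry the editing domain without Mex3a, and every group carries the gg8tTA driver and the editing domain. The gg8tTA driver is active in immature OSN and OMPtTA in mature OSN, and the labels call the sorted red cells immature OSN in gg8 mice and immature and mature OSN in the others. Per the labels each mCherry-negative library came from the same mouse as the OSN library of that number; ages are not given in the labels. The library names carry 1 month for the gg8 libraries and another for the rest, so driver and that month cannot be told apart, and the tables are not compared with each other.

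In the cytoplasm, most mRNAs decay after their poly(A) tail is shortened. PAN2-PAN3 and the CCR4-NOT complex remove the tail, after which the mRNA is decapped by DCP2 with its activators and degraded from the 5′ end by XRN1, or degraded from the 3′ end by the exosome. The LSM1-7 ring binds shortened tails and promotes decapping, nonsense-mediated decay removes mRNAs with early stop codons, and the ZFP36 proteins bind AU-rich elements (ARE) in 3′ ends and bring CCR4-NOT to them. Mex3a is an RNA-binding protein with a RING domain of the kind found in E3 ubiquitin ligases.

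Values are TPM, a transcript level divided by length and scaled to the same total in each library, so levels can be set side by side between genes. Whole counts recovered from the TPM steps gave depths of 7529648 to 15323153 counts in the 21 libraries, and the lowest listed gene in any library rested on 53 counts. The level of Mex3a, the gene in the construct, was 551 ± 378 TPM in MexHT OSN (SD, n = 6), 122 ± 56.7 TPM in MexHT mCherry-negative cells (n = 5), 39.2 ± 19.8 TPM in HT OSN and 54.0 ± 22.8 TPM in HT mCherry-negative cells (n = 3 each). It was 460 and 1632 TPM in gg8 MexHT OSN and 101 and 211 TPM in gg8 MexHT mCherry-negative libraries. Of the 21 libraries, 14 held both Xist and Y-linked transcripts at 1 TPM or more, although the labels speak of single mice. Xist was at 58.4 to 140 TPM in the 6 MexHT OSN libraries but at 0.126, 60.3 and 0.14 TPM in HT OSN replicates 1, 2 and 3. The mCherry-negative libraries also held neuronal transcripts: the summed level of 14 mature OSN markers was 5769 to 11980 TPM in HT mCherry-negative and 9714 to 14980 TPM in HT OSN libraries. They differed from OSN libraries more in white blood cell and connective tissue transcripts, given beside the results they touch.

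Every listed gene was expressed in every library. The 39 group means ran from 15.8 TPM (Lsm1) to 185 TPM (Zfp36) in HT OSN, and the median of the 39 coefficients of variation between libraries of a group lay between 8.62% (HT OSN) and 17.8% (gg8 MexHT OSN). Ddx6, an RNA helicase that links deadenylation to decapping, ranked first or second in each of the 6 groups except MexHT mCherry-negative, where Zfp36 and Zfp36l1 stood above it, with means of 143 TPM in HT OSN and 175 TPM in MexHT OSN. Lsm1, the subunit that sets the cytoplasmic ring apart, had the lowest mean of the 39 in HT OSN, HT mCherry-negative, MexHT mCherry-negative and gg8 MexHT mCherry-negative libraries. The Zfp36 family stood at both ends of this order: Zfp36 was highest of the 39 in all 3 mCherry-negative groups and in HT OSN, and Zfp36l2 was lowest of the 39 in MexHT OSN (17.5 TPM) and in gg8 MexHT OSN (12.5 TPM).

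**Figure D1:**
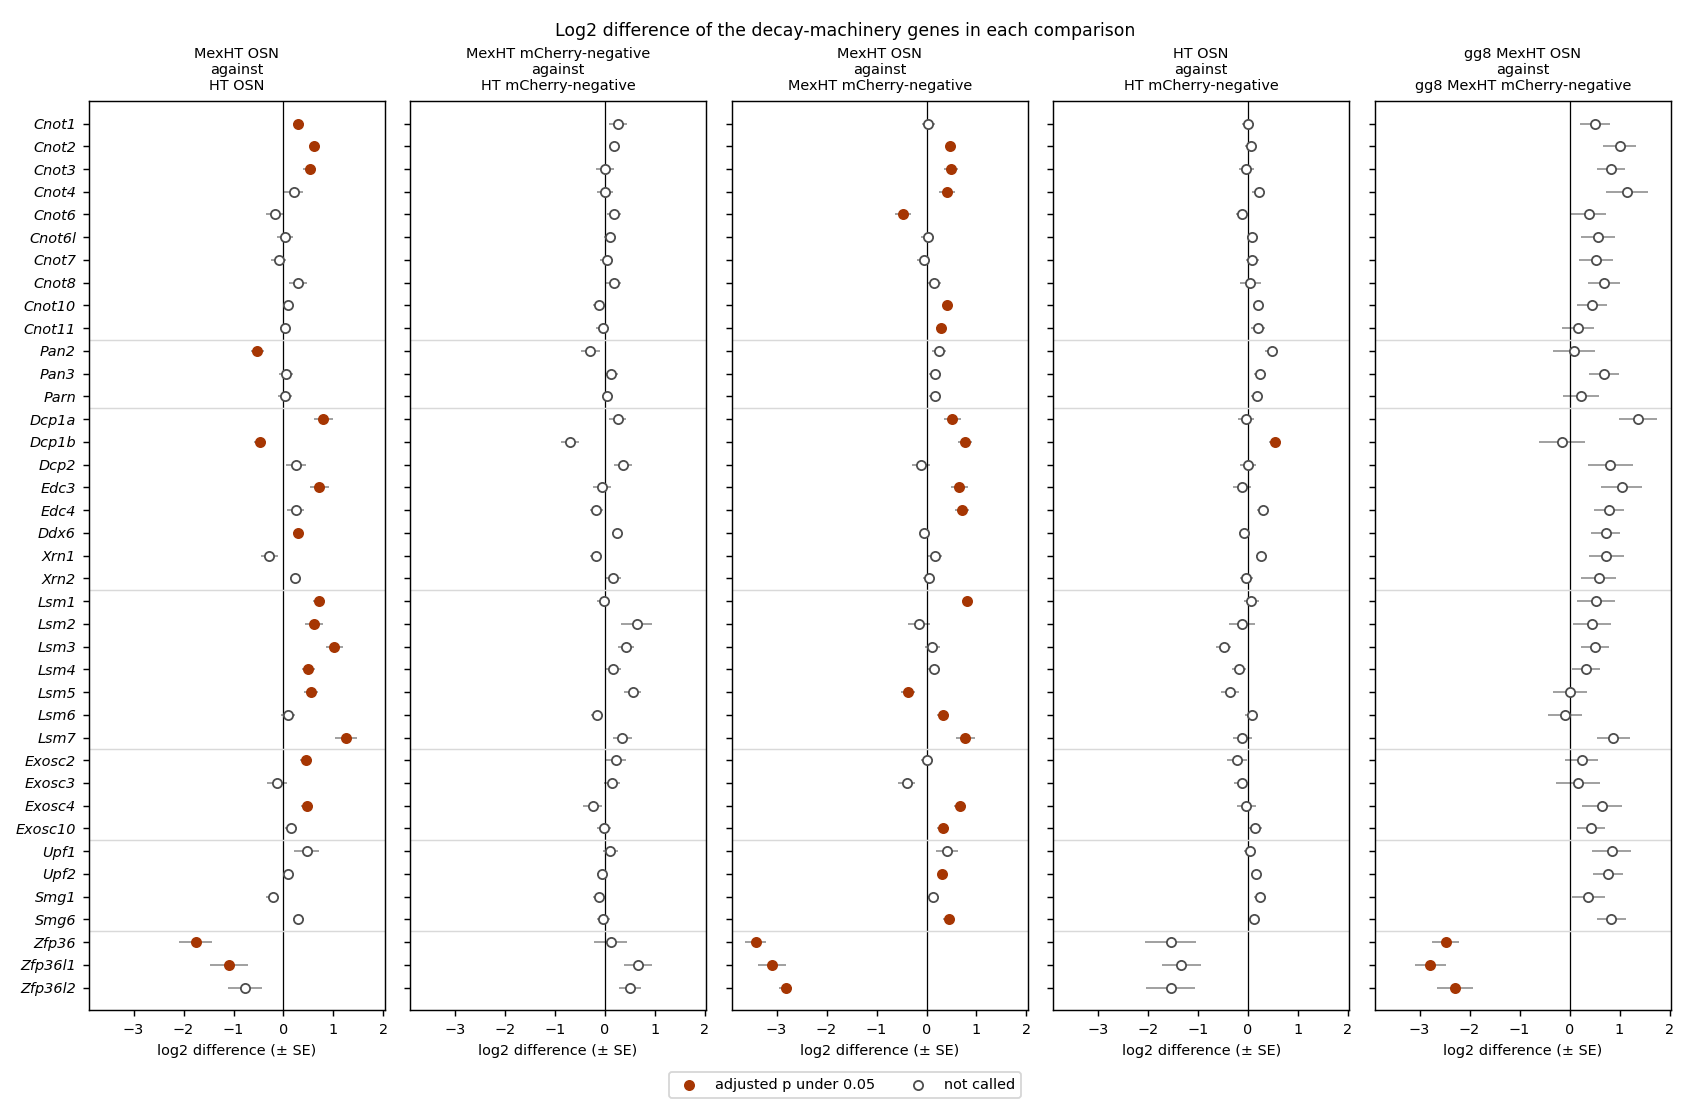
Log2 difference of each of the 39 genes (vertical axis, in order of role) in the 5 comparisons of groups, from the fits on log2(TPM + 1), with bars of 1 standard error. Filled points passed an adjusted p of 0.05: 18 genes between MexHT OSN and HT OSN, 0 between the mCherry-negative groups, 21 and 1 between the fractions of MexHT and HT mice, and 3 in gg8 MexHT mice, where the 3 Zfp36 genes lie far to the left.

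MexHT OSN were set against HT OSN to see what differs when Mex3a is joined to the editing domain. Most of the decay machinery that changed was higher in MexHT OSN: 14 of the 39 genes rose (35.9%, against 19.9% of the 16067 genes tested) and 4 fell (10.3%, against 16.8%). Of the 7 Lsm genes 6 rose, as did Cnot2, Cnot3 and Cnot1 of the CCR4-NOT complex, the decapping genes Dcp1a, Edc3 and Ddx6, and Exosc4 and Exosc2 of the exosome. The AU-rich element binding genes Zfp36 and Zfp36l1 fell, together with Pan2 and Dcp1b. The median log2 difference was 0.24 over the 39 genes and 0.03 over all genes tested (limma on log2(TPM + 1), Benjamini-Hochberg adjusted over all genes, threshold 0.05, two-sided). All libraries of one group lay above all of the other for 15 genes in the direction of MexHT OSN (21.5% of all genes did so) and for 3 in that of HT OSN (16.9%).

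In the CCR4-NOT complex, 3 of 10 subunits rose and 0 fell, where 19.9% and 16.8% of all genes did. Cnot2, a scaffold subunit of its NOT module, is given library by library, as are Lsm1, Dcp1a, Edc3, Exosc4, Dcp1b, Pan2 and Upf1 further on, all chosen after their values were seen. Cnot2 stood at 61.5, 59.6 and 70.1 TPM in HT OSN and at 93.6, 99.8, 92.2, 91.6, 110 and 96.2 TPM in MexHT OSN. The lowest MexHT OSN library lay above the highest HT OSN library, a difference of 1.52-fold (log2 0.60 ± 0.10 SE, limma adjusted p = 0.00152). Cnot3, its partner in the same module, was 1.44-fold higher (limma adjusted p = 0.00983). Cnot1, the scaffold on which the complex is built, was 1.23-fold higher (limma adjusted p = 0.0498), a call that 14 of 16 alternatives ended. The catalytic subunits were not called: the log2 difference was -0.18 for Cnot6, 0.03 for Cnot6l, -0.10 for Cnot7 and 0.29 for Cnot8.

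Among the other deadenylases, Pan2, the catalytic subunit of PAN2-PAN3, went the other way. It was at 57.8, 48.9 and 62.2 TPM in HT OSN and at 45.0, 42.1, 35.7, 36.9, 41.1 and 32.9 TPM in MexHT OSN, with no overlap. The difference was 1.44-fold in favour of HT OSN (log2 -0.52 ± 0.13 SE, limma adjusted p = 0.0111). Pan3, its partner, and Parn, a deadenylase of its own, differed by log2 0.05 and 0.03 and were not called.

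Of the 8 decapping and 5′ decay genes, 3 rose and 1 fell, where 19.9% and 16.8% of all genes did. Dcp1a, the activating partner of the decapping enzyme, was at 16.0, 16.8 and 19.9 TPM in HT OSN and at 29.0, 28.7, 23.5, 31.6, 45.9 and 32.4 TPM in MexHT OSN. All MexHT OSN libraries were above those of HT OSN (log2 0.80 ± 0.19 SE, limma adjusted p = 0.00852). Dcp1b, its paralog, was at 43.8, 41.4 and 41.6 TPM in HT OSN and at 32.7, 34.8, 30.5, 28.6, 27.3 and 27.9 TPM in MexHT OSN. The paralogs thus moved in opposite directions, Dcp1b by log2 -0.47 ± 0.11 SE (limma adjusted p = 0.00983). Edc3, an enhancer of decapping, was at 19.3, 19.0 and 22.9 TPM in HT OSN and at 29.5, 28.7, 28.8, 31.5, 51.3 and 39.2 TPM in MexHT OSN. The last pair, replicates 5 and 6, were the highest, and the groups did not overlap (log2 0.72 ± 0.19 SE, limma adjusted p = 0.016). Ddx6 was 1.22-fold higher (limma adjusted p = 0.0397), a call lost under 11 of 16 alternatives. The catalytic enzyme gene Dcp2 (log2 0.24), the exonuclease genes Xrn1 (log2 -0.29) and Xrn2 (log2 0.24), and the scaffold gene Edc4 (log2 0.24) were not called.

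The Lsm ring held the largest rises. The median log2 difference of its 7 genes was 0.61, and the one not called was Lsm6 (log2 0.09). Lsm7 was at 66.1, 64.4 and 78.0 TPM in HT OSN and at 116, 140, 138, 171, 225 and 239 TPM in MexHT OSN. Replicates 5 and 6 were highest again, and the lowest MexHT OSN library was still above all HT OSN libraries (2.37-fold, log2 1.25 ± 0.22 SE, limma adjusted p = 0.00226). Lsm3 was at 72.2, 74.8 and 72.6 TPM in HT OSN and at 115, 140, 143, 130, 193 and 194 TPM in MexHT OSN. The HT OSN libraries were nearly equal and all below those of MexHT OSN (2.03-fold, log2 1.02 ± 0.17 SE, limma adjusted p = 0.00154). Lsm1 was at 15.9, 16.9 and 14.6 TPM in HT OSN and at 24.9, 25.8, 25.0, 26.6, 28.9 and 27.9 TPM in MexHT OSN. The groups did not overlap, and its standard error was the smallest of the 3 (1.64-fold, log2 0.71 ± 0.12 SE, limma adjusted p = 0.00164). Lsm2, Lsm4 and Lsm5 rose by log2 0.61, 0.50 and 0.55. Lsm2 to Lsm7 are shared with the nuclear LSM2-8 ring of splicing, so their levels do not belong to decay alone; Lsm8, the subunit of the nuclear ring, was not called.

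The promoter windows of Lsm3 and Lsm7 are printed because these genes had the largest rises. Both are the 250 bases before the RefSeq start (GRCm38.p6), Lsm3 at chr6:91515785-91516034 on the + strand and Lsm7 at chr10:80855210-80855459 on the - strand, 5′ to 3′, with matches to GGGCGG (the GC box core, sought on both strands) in capitals.
Lsm3: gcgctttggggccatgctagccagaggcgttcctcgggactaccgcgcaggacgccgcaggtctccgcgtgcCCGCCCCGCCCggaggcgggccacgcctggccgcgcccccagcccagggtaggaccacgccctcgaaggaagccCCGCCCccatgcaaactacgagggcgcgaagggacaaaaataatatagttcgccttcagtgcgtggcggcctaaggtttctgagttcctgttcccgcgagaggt
Lsm7: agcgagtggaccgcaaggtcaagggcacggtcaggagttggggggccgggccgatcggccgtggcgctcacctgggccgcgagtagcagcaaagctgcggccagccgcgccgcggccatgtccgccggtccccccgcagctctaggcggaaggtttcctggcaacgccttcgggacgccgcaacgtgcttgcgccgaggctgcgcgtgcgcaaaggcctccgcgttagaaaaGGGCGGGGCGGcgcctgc
Lsm3 held 3 matches, the first pair sharing 1 base, and Lsm7 held 2, which also share 1 base. The Lsm3 gene itself spans bases 91516035 to 91522620 of chromosome 6 and Lsm7 bases 80852825 to 80855209 of chromosome 10. Of the 39 genes 31 had a window, 40 windows in all. Of these 40 windows 25 held GGGCGG, from 21 of the 31 genes, as did 32.7% of all 32851 windows of this length. A match describes the letters and is no binding site.

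Of the 4 exosome genes 2 rose, where 19.9% of all genes did. Exosc4, a subunit of the core ring, was at 21.9, 22.6 and 24.8 TPM in HT OSN and at 32.3, 28.2, 29.1, 33.6, 35.0 and 36.8 TPM in MexHT OSN. The groups did not overlap (log2 0.47 ± 0.12 SE, limma adjusted p = 0.0143), and Exosc2, an RNA-binding cap subunit, rose by a similar log2 0.45. The cap gene Exosc3 (log2 -0.13) and the nuclear exonuclease gene Exosc10 (log2 0.15) were not called. None of the 4 genes of nonsense-mediated decay was called. Upf1, its central helicase, stood at 119 to 278 TPM in MexHT OSN against 111 to 125 TPM in HT OSN, with only replicates 5 and 6 (278 and 229 TPM) above 144 TPM. The log2 differences were 0.46 for Upf1, 0.10 for Upf2, -0.22 for the kinase gene Smg1 and 0.30 for the endonuclease gene Smg6, whose groups did not overlap (limma adjusted p = 0.0675).

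The levels of paralogs of the same step were as follows. Of the CCR4-type catalytic subunits, Cnot6 had a mean of 49.0 ± 1.29 TPM in HT OSN and 44.1 ± 10.9 TPM in MexHT OSN, and Cnot6l of 40.6 ± 0.969 and 42.1 ± 7.13 TPM (SD, n = 3 and 6). Cnot6 was above Cnot6l by mean in all 6 groups, most widely in MexHT mCherry-negative cells (60.8 ± 7.59 against 40.9 ± 3.38 TPM, n = 5). Of the CAF1-type subunits, Cnot7 stood at 75.7 ± 6.52 and 71.4 ± 13.2 TPM in HT OSN and MexHT OSN, and Cnot8 at 81.5 ± 18.5 and 99.3 ± 18.5 TPM. Dcp2, the decapping enzyme, was among the less abundant genes at 19.8 ± 1.79 TPM in HT OSN and 24.2 ± 6.47 TPM in MexHT OSN. For its partners the order by mean turned: Dcp1b was above Dcp1a in HT OSN (42.3 ± 1.30 against 17.6 ± 2.03 TPM), whereas in MexHT OSN they stood at 30.3 ± 2.96 and 31.8 ± 7.55 TPM, within the spread of the libraries. In gg8 MexHT OSN Dcp1a stood at 53.6 and 79.1 TPM and Dcp1b at 42.1 and 20.3 TPM. These levels are descriptions without a test between genes.

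**Figure D2:**
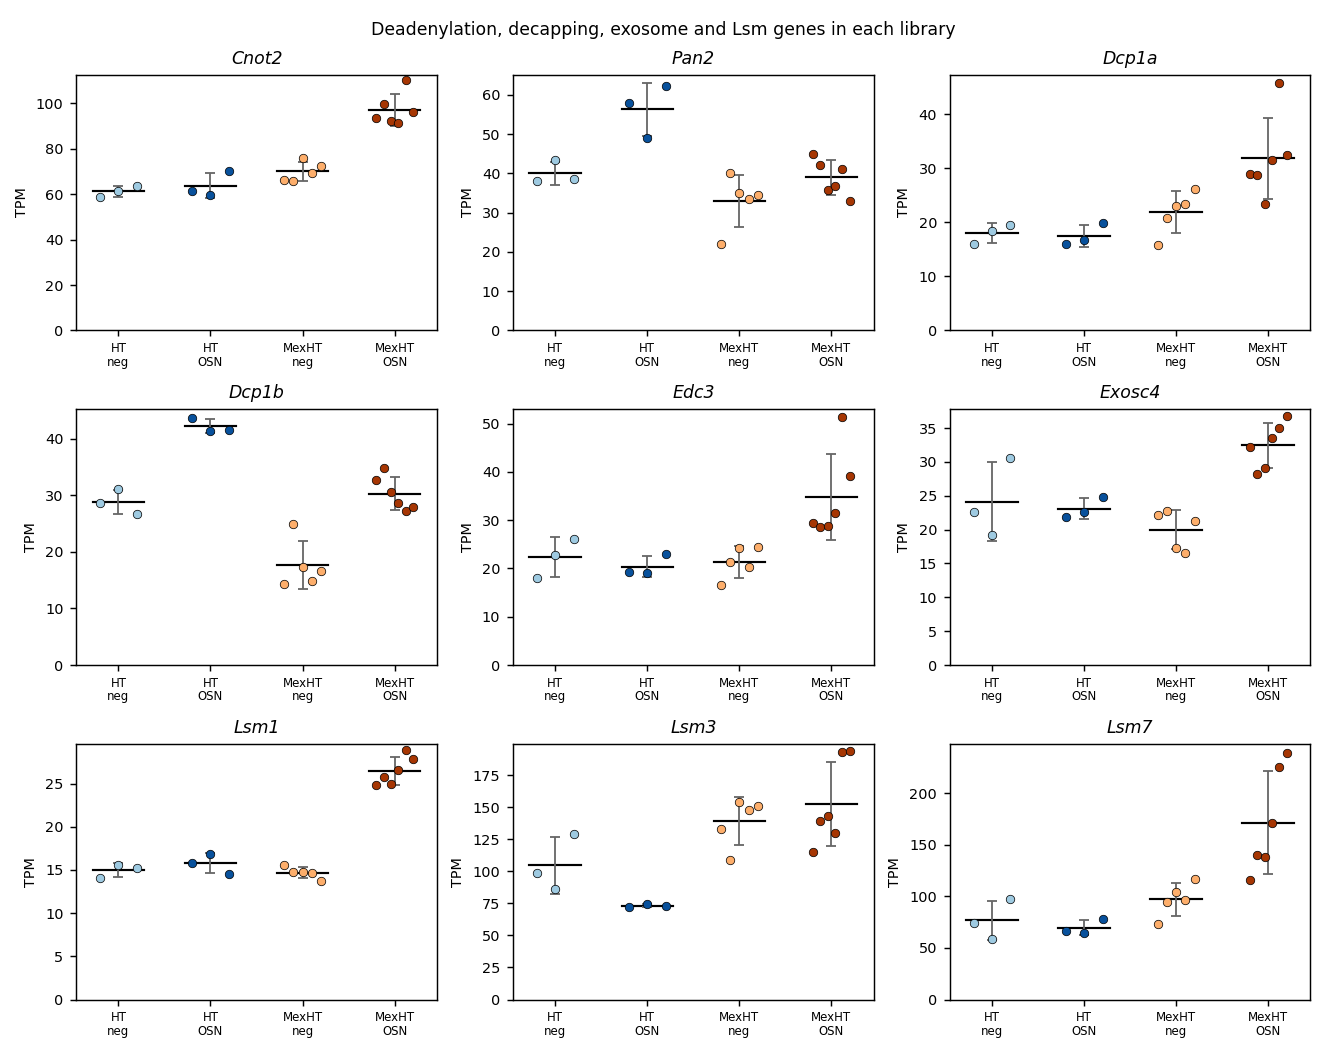
TPM of 9 genes in each library (points) of the 4 groups with both drivers (neg, mCherry-negative), with the group mean (line) and SD (bar), on axes that start at 0. For Cnot2, Dcp1a, Edc3, Exosc4, Lsm1, Lsm3 and Lsm7 the 6 MexHT OSN libraries lie above the 3 HT OSN libraries, and for Pan2 and Dcp1b below them.

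The Zfp36 family fell furthest. Zfp36 encodes tristetraprolin, an AU-rich element binding protein and itself an immediate early gene. It was at 176, 91.1 and 289 TPM in HT OSN and at 43.7, 35.6, 37.7, 62.8, 51.0 and 69.2 TPM in MexHT OSN. All MexHT OSN libraries were below those of HT OSN, although the HT OSN values were themselves widely spread (log2 -1.76 ± 0.33 SE, 3.39-fold, limma adjusted p = 0.00282). Zfp36l1, its paralog, was at 49.9, 25.5 and 77.3 TPM in HT OSN and at 16.6, 13.5, 14.3, 26.3, 31.4 and 33.4 TPM in MexHT OSN. Here HT OSN replicate 2 lay inside the MexHT range (log2 -1.09 ± 0.38 SE, limma adjusted p = 0.0444), and 8 of 16 alternatives ended the call. Zfp36l2, the third paralog, was at 25.3, 16.9 and 64.0 TPM in HT OSN and at 18.5, 17.1, 16.6, 21.2, 18.9 and 12.9 TPM in MexHT OSN. The groups overlapped and it was not called (log2 -0.77 ± 0.33 SE, limma adjusted p = 0.0939). HT OSN replicate 3 was highest and replicate 2 lowest for each of the 3 genes. Without replicate 3 the log2 differences were -1.37, -0.73 and -0.24, and only Zfp36 passed (limma adjusted p = 0.0102). Without replicate 2 they were -2.19, -1.51 and -1.17, and Zfp36l2 passed too (limma adjusted p = 0.0242).

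The promoter windows of Zfp36 and Zfp36l1 are printed because these genes fell together. They are the 250 bases before the RefSeq start (GRCm38.p6), Zfp36 at chr7:28379229-28379478 and Zfp36l1 at chr12:80113014-80113263, both on the - strand and written 5′ to 3′. Capitals mark matches on either strand to the CArG box bound by serum response factor, to TATAAA (the TATA box), to GGGCGG or to TGANTCA. The last is a wider pattern than the AP-1 site, which has C or G in place of N.
Zfp36: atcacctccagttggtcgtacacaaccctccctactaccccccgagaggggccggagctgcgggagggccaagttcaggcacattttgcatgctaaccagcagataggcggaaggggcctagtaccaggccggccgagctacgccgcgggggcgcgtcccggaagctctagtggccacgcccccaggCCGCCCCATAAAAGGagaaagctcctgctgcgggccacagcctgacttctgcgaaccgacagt
Zfp36l1: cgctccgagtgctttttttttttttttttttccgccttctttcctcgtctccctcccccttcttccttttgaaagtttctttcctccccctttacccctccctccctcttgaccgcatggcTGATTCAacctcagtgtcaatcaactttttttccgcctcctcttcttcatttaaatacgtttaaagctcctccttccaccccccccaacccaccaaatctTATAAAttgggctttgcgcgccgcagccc
The Zfp36 window held the CArG box, 49 to 58 bases before the start, and next to it GGGCGG, which shares 1 base with it. The Zfp36l1 window held TATAAA 24 to 29 bases and TGANTCA 123 to 129 bases before the start. The latter reads TGATTCA and so is not the AP-1 site itself. Among the 40 windows of 31 listed genes the CArG box was found in Zfp36 alone (1.47% of all windows hold it). TATAAA was found in Zfp36l1 alone (12.4%) and TGANTCA in Pan2 and Zfp36l1 (6.75%). Zfp36l2 had no entry. The Zfp36 gene spans bases 28376784 to 28379228 of chromosome 7 and Zfp36l1 bases 80107760 to 80113013 of chromosome 12.

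Cell type transcripts differed between the same groups. In MexHT OSN against HT OSN, 12 of 14 mature OSN markers fell and 9 of 12 immature OSN markers rose, as did 4 of 11 progenitor and cell cycle markers. All 10 macrophage markers fell, from summed levels of 1723, 1401 and 5857 TPM in HT OSN replicates 1, 2 and 3 to 319 to 616 TPM in MexHT OSN, and none of the 10 was at 0 in every library of either group. Zfp36, Zfp36l1 and Zfp36l2 were likewise highest in HT OSN replicate 3 and lowest in replicate 2. Of 12 immediate early genes 3 fell, and their summed level was 2001 to 2910 TPM in HT OSN and 2072 to 2587 TPM in MexHT OSN. The part of these transcripts in the differences of the decay genes was not tested, and in bulk samples fewer cells of a type and less RNA per cell cannot be told apart.

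With the Xist level as a covariate, 0 of the 18 calls between MexHT OSN and HT OSN passed, and over all genes 2.05% did. All 18 genes kept their direction, and their standard errors were 1.38 to 1.85 times as large (median 1.8). The log2 differences of the 14 higher genes stayed within 1.5 times of those without the covariate: Cnot2 had 0.69 ± 0.18 SE, Lsm3 0.87 ± 0.30 SE and Lsm7 1.21 ± 0.40 SE, with limma adjusted p of 0.076, 0.143 and 0.135. Of the 4 lower genes 1 did so, Dcp1b (log2 -0.40 ± 0.21 SE), while Pan2 came to -0.24, Zfp36 to -0.82 ± 0.45 SE and Zfp36l1 to -0.25 ± 0.59 SE. Zfp36l2, not called before, came to 0.20 ± 0.46 SE. Under every other alternative tried, 6 genes stayed called: Cnot2, Dcp1a, Lsm1, Lsm3, Lsm7 and Zfp36. Without HT OSN replicate 1 there were 7 calls and without HT OSN replicate 2 there were 11.

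The mCherry-negative groups were set against each other as a background of the construct. Without a call, all 14 mature OSN markers were lower in MexHT mCherry-negative libraries (median log2 -1.56). All 11 progenitor and cell cycle markers were higher (median log2 0.84). Their part in the values below was not tested. None of the 39 genes was called between MexHT and HT mCherry-negative libraries (limma and voom alike), as was 0.0% of the 16860 genes tested; at an unadjusted p under 0.05 limma had 3465 genes, 6 of them listed here (Dcp1b, Ddx6, Lsm3, Lsm5, Zfp36l1 and Zfp36l2). Cnot2 and Ddx6 were higher without overlap (3.64% of all genes were) and Dcp1b lower (5.07%). The Zfp36 family had log2 differences of 0.11, 0.66 and 0.50 there, against -1.76, -1.09 and -0.77 in OSN, and Lsm1 -0.03 against 0.71. Other genes had like values in both fractions without a call in mCherry-negative cells: Lsm2 had 0.64 there and 0.61 in OSN, Lsm5 0.56 and 0.55, and Dcp1b -0.70 and -0.47.

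Whether the construct difference itself differed between the fractions was tested as an interaction over the 17 libraries with both drivers. It was positive, larger in OSN, for 3 genes (7.69%, against 7.05% of all genes) and negative for 2 (5.13%, against 5.37%), shares close to the background. The positive ones were Lsm1 (log2 0.74 ± 0.15 SE, limma adjusted p = 0.00593), Exosc4 (0.72 ± 0.22 SE, 0.0386) and Cnot2 (0.41 ± 0.13 SE, 0.0444). The negative ones were Zfp36 (log2 -1.87 ± 0.50 SE, limma adjusted p = 0.0226) and Zfp36l1 (-1.75 ± 0.51 SE, 0.0326). Zfp36l2 missed the threshold (log2 -1.27 ± 0.43 SE, limma adjusted p = 0.0597). All 10 macrophage markers were negative too. With the mouse as a replicate block 8 genes were called, Edc3, Lsm7 and Zfp36l2 in addition. Under median-of-ratios scaling 1 was positive and 3 negative, with Zfp36l2 added and Cnot2 and Exosc4 lost. Lsm1 was called under each alternative, whereas for Lsm2 and Lsm5 the interaction was log2 -0.03 ± 0.36 SE and -0.01 ± 0.23 SE. Cnot2 failed under 17 of 22 alternatives and Exosc4 under 12. Zfp36 failed when replicate 1 or 3 of HT OSN or replicate 2 of HT mCherry-negative cells was left out, and Zfp36l1 also when replicate 3 of the latter or replicate 4 of MexHT mCherry-negative cells was.

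Within MexHT mice, the fractions differed most in the Zfp36 family. Of the 39 genes 16 were higher in OSN than in the negative fraction (41.0%, against 35.8% of 16522 genes) and 5 lower (12.8%, against 27.6%). The 3 Zfp36 genes were 7.07 to 10.7-fold lower, while the next largest difference, that of Lsm1, was 1.75-fold. Groups did not overlap for 11 genes in the higher direction (23.4% of all genes) and 3 in the lower (19.6%).

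Zfp36 was at 847, 429, 470, 488 and 499 TPM in MexHT mCherry-negative libraries, against 35.6 to 69.2 TPM in MexHT OSN (log2 -3.42 ± 0.21 SE, limma adjusted p = 4.26e-08). Zfp36l1 was at 317, 130, 176, 199 and 163 TPM against 13.5 to 33.4 TPM in OSN (log2 -3.09 ± 0.28 SE, limma adjusted p = 1.24e-06). Zfp36l2 was at 120, 111, 124, 137 and 156 TPM against 12.9 to 21.2 TPM (log2 -2.82 ± 0.13 SE, limma adjusted p = 5.43e-09). For each of the 3 genes the fractions were far apart, and MexHT mCherry-negative replicate 1 stood out for Zfp36 and Zfp36l1 and not for Zfp36l2. That library also had the highest summed level of 12 immediate early genes, 9614 TPM against 4813 to 5169 TPM in the other 4. It was likewise highest in summed sustentacular cell (2012 TPM), basal cell (1206 TPM) and ensheathing glia markers (236 TPM against 22.4 to 39.1 TPM). Its summed immature OSN (2636 TPM), progenitor and cell cycle (757 TPM), neutrophil (12500 TPM) and connective tissue markers (11350 TPM) were the lowest of the group. The part of these transcripts in its Zfp36 and Zfp36l1 levels was not tested.

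Among the other genes, Lsm1 had the largest rise: it was at 13.7 to 15.6 TPM in MexHT mCherry-negative libraries and at 24.9 to 28.9 TPM in MexHT OSN (log2 0.81 ± 0.10 SE, limma adjusted p = 1.77e-05). Of the 10 CCR4-NOT genes 5 rose (Cnot2, Cnot3, Cnot4, Cnot10 and Cnot11, log2 0.29 to 0.49) and the catalytic Cnot6 fell (log2 -0.48). Of all genes 35.8% rose and 27.6% fell. Dcp1a, Dcp1b, Edc3 and Edc4 rose by log2 0.51 to 0.77, and Lsm6, Lsm7, Exosc4, Exosc10, Upf2 and Smg6 by 0.32 to 0.78. Lsm5 fell (log2 -0.37, limma adjusted p = 0.0331). Lsm3 did not pass here (log2 0.12), with 109 to 154 TPM in mCherry-negative libraries. Median-of-ratios scaling moved the median of all genes from 0.16 to 0.02. Then 10 listed genes were higher and 6 lower (60.1% of all genes were called in either direction). Cnot4, Cnot11, Dcp1a, Lsm6, Exosc10 and Upf2 lost their calls. The Zfp36 family kept its calls under each alternative, at log2 -3.61 to -2.74.

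Between the fractions of HT mice, where Mex3a is absent from the construct, the Zfp36 family had its lower values in OSN without passing the test. Dcp1b was the 1 gene called higher (2.56%, against 2.18% of 17027 genes), at 42.3 ± 1.30 TPM in OSN and 28.8 ± 2.16 TPM in mCherry-negative libraries (SD, n = 3; limma adjusted p = 0.0306), and 0 were called lower (9.11% of all genes). Zfp36 was at 660, 267 and 666 TPM in HT mCherry-negative libraries, against 176, 91.1 and 289 TPM in the OSN of the same mice. Every mouse had the lower value in OSN, by log2 -1.55 ± 0.50 SE (limma adjusted p = 0.0887). Zfp36l1 was at 154, 98.7 and 109 TPM in HT mCherry-negative libraries (log2 -1.34 ± 0.39 SE, limma adjusted p = 0.0703), and Zfp36l2 at 94.8, 62.8 and 125 TPM (log2 -1.55 ± 0.48 SE, limma adjusted p = 0.0819). With the mouse as a replicate block all 3 were called, with limma adjusted p of 0.00357, 0.0238 and 0.00784, beside Dcp1b, Pan2 and Lsm3. The call of Dcp1b held without HT mCherry-negative replicate 2, where Pan2, Lsm3 and Zfp36 passed as well, and was lost when any other library was left out. Without HT OSN replicate 3 Zfp36l1 and Zfp36l2 passed. Groups did not overlap for 9 genes in the higher direction (22.9% of all genes) and for Ddx6, Lsm3 and Zfp36l1 in the lower (18.0%).

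In the gg8 MexHT mice the 3 Zfp36 genes were the ones called, all lower in OSN (7.69%, against 7.2% of 16490 genes), and 0 were called higher (1.12% of all genes). Zfp36 was at 65.6 and 53.1 TPM in OSN and at 342 and 327 TPM in mCherry-negative libraries (log2 -2.48 ± 0.27 SE, limma adjusted p = 0.0132). Zfp36l1 was at 19.3 and 19.9 TPM against 129 and 155 TPM (log2 -2.79 ± 0.31 SE, limma adjusted p = 0.0138). Zfp36l2 was at 14.0 and 11.0 TPM against 67.0 and 62.5 TPM (log2 -2.29 ± 0.37 SE, limma adjusted p = 0.0263). Both libraries of a fraction stood close together for these genes. The mCherry-negative fraction of these mice also held mature OSN transcripts. The 14 mature OSN markers summed to 8344 and 14610 TPM there and to 986 and 416 TPM in OSN. Of these 14 markers 11 were called lower in OSN (7.2% of all genes were). The fractions thus differ in neuron maturity as well as in other cells, and its part in the gene differences was not tested. The other genes leaned the other way without a call: 27 were higher in OSN without overlap, which 33.5% of all genes were with 2 libraries a group, whereas those lower without overlap were the 3 Zfp36 genes (30.2% of all genes). Among the 27, Dcp1a was at 53.6 and 79.1 TPM against 29.6 and 20.4 TPM (log2 1.37 ± 0.38 SE, limma adjusted p = 0.0754), Lsm7 at 156 and 265 TPM against 115 and 107 TPM, and Upf1 at 148 and 301 TPM against 126 and 109 TPM. OSN replicate 2 was the higher of the pair for these 3. Over the alternatives the log2 differences were -2.63 to -2.33 for Zfp36, -2.94 to -2.66 for Zfp36l1 and -2.48 to -2.13 for Zfp36l2. Leaving out 1 library leaves a lone library in a group, so no calls are given for those fits.

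**Figure D3:**
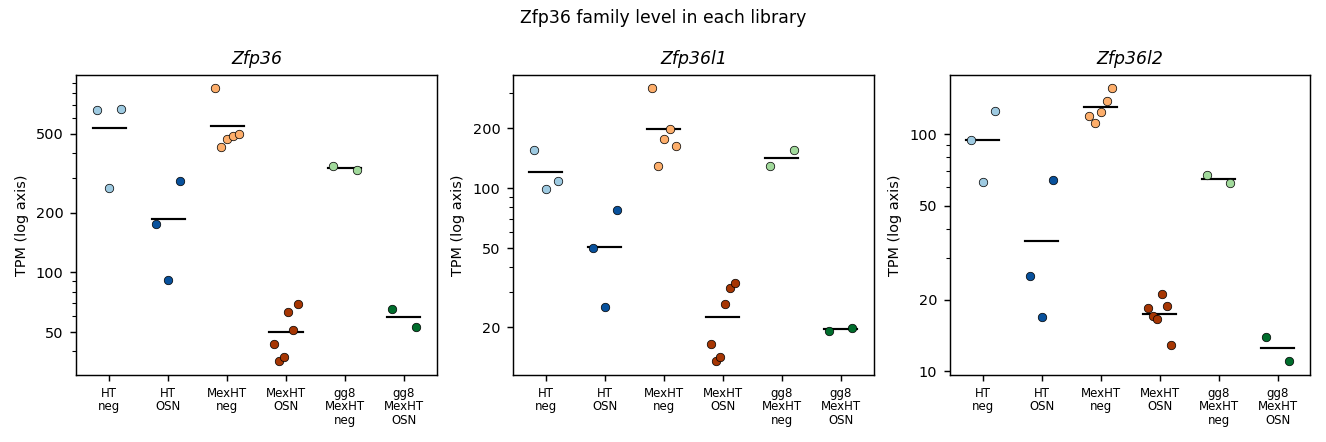
TPM of Zfp36, Zfp36l1 and Zfp36l2 in each library (points) of the 6 groups (neg, mCherry-negative), on log axes with the group mean as a line; gg8 groups come from their own table. In each panel the mCherry-negative libraries lie above the OSN libraries of the same genotype apart from an overlap in HT mice for Zfp36 and Zfp36l2, and MexHT OSN have the lowest mean of the 4 groups with both drivers (50.0, 22.6 and 17.5 TPM).

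Neutrophil and connective tissue transcripts were lower in OSN in all 3 genotypes, as the Zfp36 values were. In MexHT mice all 10 neutrophil markers, all 8 of connective tissue and vessels, all 5 of basal cells and all 12 immediate early genes were lower in OSN, while of 10 macrophage markers 5 were lower and 2 higher. The summed neutrophil level was 163 to 380 TPM in MexHT OSN and 12500 to 16540 TPM in mCherry-negative libraries, and the summed immediate early level 2072 to 2587 TPM against 4813 to 9614 TPM. In HT mice 10 of 10 neutrophil markers, 7 of 8 of connective tissue and vessels and 4 of 12 immediate early genes were lower in OSN, whereas 6 of 10 macrophage markers were higher. In gg8 MexHT mice 9 of 10 neutrophil markers were lower, with sums of 71.3 to 79.7 TPM against 2937 to 3650 TPM, as were 7 of 8 connective tissue and vessel markers, 3 of 10 macrophage markers and 1 of 12 immediate early genes (7.2% of all genes were). None of the neutrophil or connective tissue markers was at 0 in every library of a group. Their part in the Zfp36 differences was not tested.

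**Figure D4:**
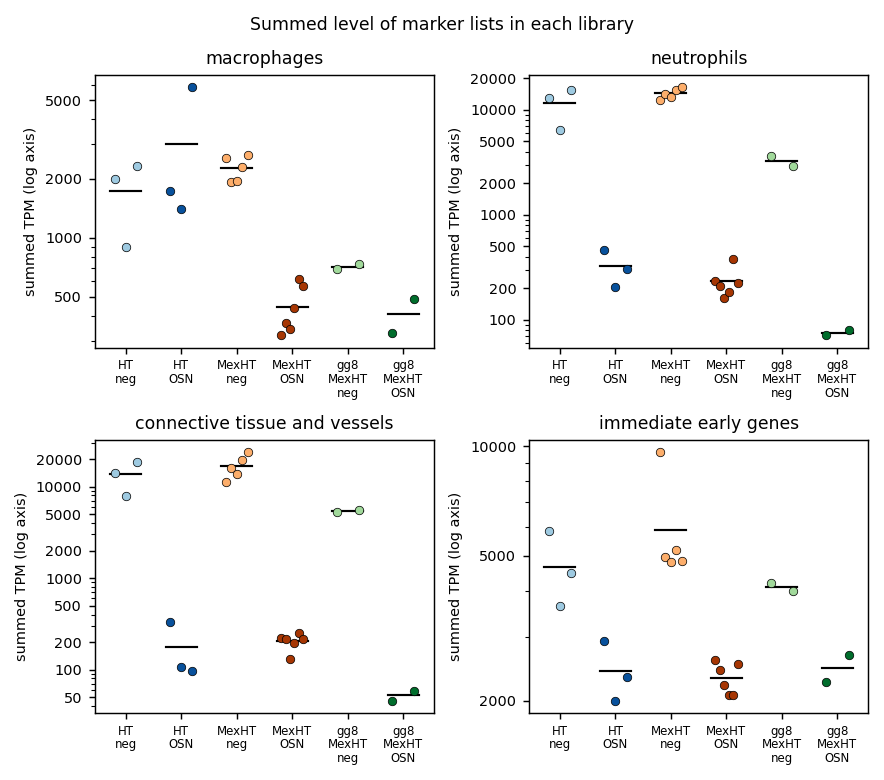
Summed TPM of 4 marker lists in each library (points) of the 6 groups (neg, mCherry-negative), on log axes with the group mean as a line. Neutrophil and connective tissue sums part the mCherry-negative from the OSN libraries in each genotype, while macrophage sums in HT OSN (1401 to 5857 TPM) stay above those of MexHT OSN (319 to 616 TPM).

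Further genes of the pathway changed in both directions; those named as higher or lower passed the same limma test. Of 76 listed partners, 72 were tested between MexHT OSN and HT OSN, where 25 rose (34.7%, against 19.9% of all genes) and 8 fell (11.1%, against 16.8%), with a median log2 difference of 0.19. The lists below are read against the same shares. Of 17 exosome and Ski partners 11 rose, most of all Exosc6 of the core ring (25.5 ± 6.63 against 11.4 ± 0.898 TPM, SD, n = 6 and 3, log2 1.06), and Ttc37 of the Ski complex fell (log2 -0.51). Of 10 tested CCR4-NOT partners 4 rose, with Nanos1, a translational repressor, highest (7.26 ± 1.38 against 3.26 ± 1.96 TPM, log2 1.04). Of 9 decapping partners 3 rose, led by Lsm14b (log2 0.65), and of 11 nonsense-mediated decay partners 4, led by Magohb of the exon junction complex (38.1 ± 2.91 against 16.4 ± 7.94 TPM, log2 1.29). Other ARE-binding or stem-loop-binding genes fell in 3 of 8 cases, most of all Zc3h12a, the endonuclease regnase-1 (8.27 ± 2.37 against 19.6 ± 1.10 TPM, log2 -1.19), and Hnrnpd rose (log2 0.43). Of the microRNA silencing genes 2 of 7 fell, Ago3 most (log2 -0.77). Pabpc1, the main cytoplasmic poly(A) binding protein, fell from 380 ± 36.2 to 241 ± 23.0 TPM (log2 -0.66) and Pabpc4 rose (log2 0.70). None of 71 tested partners was called between the mCherry-negative groups.

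Between the fractions of MexHT mice 28 of 72 partners were higher in OSN (38.9%, close to the 35.8% of all genes) and 8 lower (11.1%, against 27.6%). The lower ones were led by Zc3h12a (log2 -2.35) and Pabpc1 (log2 -1.94), followed by Pabpc4 (log2 -1.56) and the antiproliferative Btg1 (log2 -1.34). The higher ones were led by Angel1, a deadenylase-like gene (log2 1.12), Lsm14b (1.00) and Tnrc6c of the microRNA silencing complex (0.97). Casc3 (0.92) and Dis3l, a cytoplasmic exosome nuclease (0.91), came next. Nanos2 was higher too (log2 0.78) but near the 1 TPM filter, at 1.56 ± 0.86 against 0.48 ± 0.52 TPM (SD, n = 6 and 5). Lsm8 (log2 -0.47) and Ttc37 (log2 -0.32) fell furthest in their lists, and Zcchc11, a terminal uridyltransferase, rose (log2 0.37). In HT mice 2 of 71 were higher (2.82%, against 2.18% of all genes), Angel1 (log2 0.71) and Nudt16 (0.67), and 4 lower (5.63%, against 9.11%), with Pabpc4 (log2 -1.24) and Btg2 (-1.10) furthest in their lists. In gg8 MexHT mice 1 of 71 was higher, Tnrc6a (log2 1.49), and 1 lower, Pabpc1 (log2 -1.65), 1.41% each against 1.12% and 7.2% of all genes. The interaction called 3 of 71 partners in each direction (4.23%, against 7.05% and 5.37% of all genes): Lsm14b (log2 0.73), Dis3l (0.68) and Magoh (0.57) positive, and Zc3h12a (-2.10) and Pabpc1 (-1.21) the furthest negative in their lists.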

How the data were processed

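RNA was measured in 21 libraries of sorted cells made from 10 ng of RNA with a stranded total RNA kit, per the labels' protocols. The authors deposited 2 tables of TPM values per gene, scaled separately to a total of 1000000 per library. FastQC, cutadapt, STAR and bedtools and the build mm10 are named in the submitters' processing notes; the counting program, annotation and use of strand are not given in the sources used here, so reads shared with antisense genes, overlapping genes or near-identical copies cannot be told apart. Replicates are separate mice per the labels, and within each group differed by more than counting error (chi-square per degree of freedom 3.53 to 127.12 over 33 pairs). Symbols turned into dates (27 in each table) were left out.

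Each comparison was fitted with limma 3.58.1 (R 4.3.3; eBayes with trend) on log2(TPM + 1), within 1 table. Genes whose average over the fitted libraries was under 1 TPM were dropped. A fold change is on that scale and understates the change of low genes. P-values were adjusted over all genes tested (Benjamini-Hochberg, 0.05, two-sided). The deposited values are whole multiples of 1 step per gene and library, and whole counts were recovered for 100.0% and 99.86% of genes (tolerance 0.01 counts), which gives depth and a voom alternative. Other alternatives were a pseudocount of 0.1, no filter, median-of-ratios scaling, a replicate block, the Xist level, all 4 groups in 1 fit, and each replicate left out.

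The members, lists, markers and tests were chosen with earlier results of these data known. Values by library are given for listed genes called with a log2 difference of at least 1 in any fit and for the Zfp36 family; of each partner list, the largest rise and fall called. 8 symbols were matched by older names (Ttc37 is also Skic3, Zcchc11 is also Tut4). Same-numbered libraries are of 1 mouse per the labels. Their deviations correlated at -0.109 to 0.421 (MexHT) and 0.174 to 0.475 (HT). Libraries of different number correlated at -0.31 to 0.33 and -0.391 to 0.227. The gg8 MexHT values (0.018 and -0.018) are tied to each other with 2 libraries a group and tell nothing of pairing. Between the mCherry-negative groups same numbers correlated at 0.231 to 0.418 over 3 pairs, within the -0.399 to 0.476 of different numbers.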

Additional observations from a re-analysis of the deposited data

Results flagged for a closer look

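Of 78 groups of 5 or 6 libraries tested among the listed genes, 11 had 1 library far from the rest; chance flags about 1 in 20. In MexHT OSN, replicate 5 was the one apart each time: highest for Cnot3 (153 TPM), Cnot4 (48.3 TPM) and Cnot6 (65.1 TPM), and lowest for Parn (36.8 TPM) and Lsm6 (38.5 TPM). It also had the lowest summed mature OSN level (2392 TPM) and the highest progenitor and cell cycle level (1279 TPM) of the 6. In MexHT mCherry-negative libraries, replicate 1 was highest for Zfp36 (847 TPM) and lowest for Cnot3 (60.6 TPM) and Cnot10 (44.1 TPM). Replicate 2 was highest for Dcp1b (24.9 TPM) and lowest for Lsm5 (50.0 TPM), and replicate 4 lowest for Parn (38.6 TPM).

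For 5 genes the construct difference differed between OSN and mCherry-negative cells by the test of the interaction: Cnot2 (log2 0.413), Lsm1 (log2 0.739), Exosc4 (log2 0.716), Zfp36 (log2 -1.871) and Zfp36l1 (log2 -1.753). The shares of listed genes, 7.69% positive and 5.13% negative, were close to the 7.05% and 5.37% of all genes. Cnot2 lost its call under 17 of 22 alternatives and Exosc4 under 12.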

How the results depend on the processing

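Counts of listed genes called kept within 1.5 times of their main value under the pseudocount, filter and scaling alternatives in all 6 fits. Between MexHT OSN and HT OSN 18 were called, with the Xist covariate 0 (standard errors 1.38 to 1.85 times as large, 2.05% of all genes called). Without 1 library 7 to 18 were called there (23.4% to 40.5% of all genes). The replicate block, by numbers that the labels tie to no shared mouse there, gave 14 (29.9% of all genes). Between the fractions of HT mice 1 was called, with the replicate block 6 (29.2% of all genes) and with all 4 groups in 1 fit 4 (16.5%). Without 1 library 0 to 4 were called in HT mice (3.87% to 24.5% of all genes). In gg8 MexHT mice 3 were called. Leaving out 1 library there leaves a lone library in a group, so no calls are given for those fits. For the interaction 5 were called, with voom 3 (9.63% of all genes), with the replicate block 8 (20.2%), and without 1 library 1 to 5 (7.14% to 14.8%). The cause of these changes in the number of genes called was not tested. In MexHT mice the paired fit called 21 (65.0% of all genes), losing Lsm5 and gaining Exosc3. Between the mCherry-negative groups each alternative called 0. Of the values of single genes under the alternatives, 743 kept direction and side of the threshold, 153 fell short of it, 14 passed it and 3 changed direction. Those 3 were Zfp36l2 between MexHT OSN and HT OSN with the Xist covariate (0.197) and Zfp36 between the mCherry-negative groups, at -0.324 to 0.333 without 1 library (-0.324 without HT mCherry-negative replicate 2 and -0.057 without MexHT mCherry-negative replicate 1); neither gene was called there. Lsm5 and Lsm2 had as few as 53 and 55 counts in a library. Their counting error is thus larger, relative to level, than that of genes with more counts. The part of depth in their differences was not tested.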
